A study of Mus musculus with 6 samples.

Results

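Alveolar macrophages (AMs), the macrophages that live in the airspaces of the lung, carry CD44 at high levels and use it to hold a coat of hyaluronan on their surface. The transcripts described here are those of 9 genes chosen by name, Cd44 itself, 5 genes that bind, make or cut hyaluronan (Hmmr, Lyve1, Has2, Hyal1 and Hyal2) and the 3 genes of the ERM linkers (Ezr, Msn and Rdx). All 9 were found in the deposited table, among 24340 genes with a value in every sample. The rule that names them uses no measured value. RNA was sequenced from AMs of female C57BL/6 mice of 6 to 10 weeks that were either CD44+/+ or CD44-/-, untreated, in 3 samples per genotype. Each sample was RNA from a few mice combined, and the paper gives pools of unequal numbers of mice. The p-values therefore measure how far such pools vary and say nothing of single mice. The CD44-/- mice lacked CD44 throughout the body, and the targeted allele is not given in the sources used here. The cells were all cells washed out of the airspaces, after lysis of red cells and without sorting.

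Hyaluronan is a long sugar polymer of the extracellular matrix. It is extruded by membrane synthases (the Has genes), cut by hyaluronidases (the Hyal genes) and broken down to single sugars in lysosomes, and it is bound at the cell surface by receptors of which CD44 is the main one on leukocytes. Inside the cell, the short tail of CD44 is tied to the actin cortex by ezrin, radixin and moesin, a family of closely related linkers known together as ERM proteins.

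Values are FPKM as deposited, a fragment count divided by transcript length and by the size of the library. Because FPKM is scaled by length, levels of different genes can be set side by side within a sample. Genotypes were compared with limma, a linear model fitted across all genes with a shared estimate of variance, on log2(FPKM + 0.1) for 10800 genes whose mean FPKM reached 0.5. A positive log2 fold change means a higher value in CD44-/- AMs, and p-values were adjusted over all genes tested. The filter was passed by 6 of the 9 genes, Cd44, Hmmr, Hyal2, Ezr, Msn and Rdx. Lyve1, Has2 and Hyal1 were under it in every sample and are given by their values.

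Across the 6 samples, the depth estimated from steps between low values was 0.814 to 1.05 relative to CD44+/+ replicate 1, with the lowest in CD44-/- replicate 2. The AM markers were high in all samples, with a summed level of 18025 to 20761 FPKM in CD44+/+ and 17567 to 21849 FPKM in CD44-/- samples over the 11 measured markers. Among markers of other cells, the airway epithelial list had the highest sum. It was 812 to 1335 FPKM in CD44+/+ and 621 to 1046 FPKM in CD44-/- samples, with overlap. The neutrophil sum was 50.8 to 90.2 FPKM in CD44+/+ and 61.8 to 71.9 FPKM in CD44-/- samples. The erythroid sum was 336 FPKM in CD44-/- replicate 2 and 14.7 to 124 FPKM in the other samples. The alveolar type 2 sum was 90.0 FPKM in CD44-/- replicate 3 and 12.8 to 34.6 FPKM in the others. The 10 interstitial macrophage markers summed to 8.85 to 11.7 FPKM in CD44+/+ and 13.7 to 15.2 FPKM in CD44-/- samples, without overlap. No gene of these 4 lists was called by limma, and an unadjusted p under 0.05 was reached by 1 AM, 0 erythroid, 2 alveolar type 2 and 3 interstitial macrophage markers. The part of these other cells in the results below was not tested, other than by leaving out single samples.

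Cd44 fell in CD44-/- AMs and was the only one of the 6 tested members called, at an adjusted p under 0.05, against 12 of the 10800 genes (0.111%). In its direction 4 genes of the table were called (0.037%) and in the other 8 (0.0741%). An unadjusted p under 0.05 was reached by Cd44 and Hmmr among the 6 members, against 7.69% of all genes tested, and Cd44 and Hyal2 did not overlap between genotypes, against 11.6%. The gene lies on chromosome 2 of mm10 from 102811142 to 102901665, on the minus strand. Cd44 stood at 540, 535 and 527 FPKM in CD44+/+ pools and at 54.7, 54.5 and 51.4 FPKM in CD44-/- pools. Each CD44-/- pool was thus far below each CD44+/+ pool, and the 3 values of each genotype lay close to one another. The mean that remained was 10.0% of that in CD44+/+ AMs. This was a log2 fold change of -3.32 ± 0.05 (SE, 95% interval -3.42 to -3.21, adjusted p = 4.19e-09 by limma). In bulk RNA, fewer cells of a type and less RNA per cell cannot be told apart. Over the 11 AM markers tested, log2 fold changes ran from -0.38 for Krt79 to 0.26, and 3 did not overlap between genotypes, Itgax (450.3 and 477 FPKM), Mrc1 (529 and 499 FPKM) and Krt79 (283 and 217 FPKM, means of CD44+/+ and CD44-/- pools).

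The decline moved Cd44 within the whole transcriptome but did not take it to the level of an unexpressed gene. Ranked by FPKM among 24340 genes, Cd44 stood at rank 113 to 116 in CD44+/+ pools and at rank 1541 to 1645 in CD44-/- pools. By its p it was at rank 1 of the 10800 genes, and by the size of its log2 fold change at rank 6. The remaining 53.5 ± 1.87 FPKM (SD, n = 3) were above the level of Rdx in every CD44-/- sample. FPKM is given per gene and not per exon, so it does not tell which part of the Cd44 transcript these fragments came from. Of the 43 other tested genes within 10 Mb of Cd44, none was called by limma, 7 had an unadjusted p under 0.05, and 9 (20.9%) had genotypes apart, against the 11.6% given above.

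The region around the annotated start of Cd44 is shown because this is the gene whose transcript fell while RNA from the locus remained. In the RefSeq table of promoters (GRCm38.p6, the build of mm10), which held 7 of the 9 genes, the window of Cd44 is chr2:102901616-102901915 on the minus strand. It is given here 5′ to 3′, with matches to GGGCGG, the core of the GC box, in capitals.
Cd44: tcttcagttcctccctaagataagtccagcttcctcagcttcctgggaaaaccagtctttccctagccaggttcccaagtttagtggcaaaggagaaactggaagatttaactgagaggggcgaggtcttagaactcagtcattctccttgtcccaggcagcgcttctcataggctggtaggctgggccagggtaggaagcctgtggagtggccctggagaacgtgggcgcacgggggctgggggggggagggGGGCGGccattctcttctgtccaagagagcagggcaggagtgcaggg
The window holds 6 CpG dinucleotides and 1 GGGCGG on either strand, and 35.7% of 32851 promoter windows of this length hold GGGCGG.

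**Figure D1:**
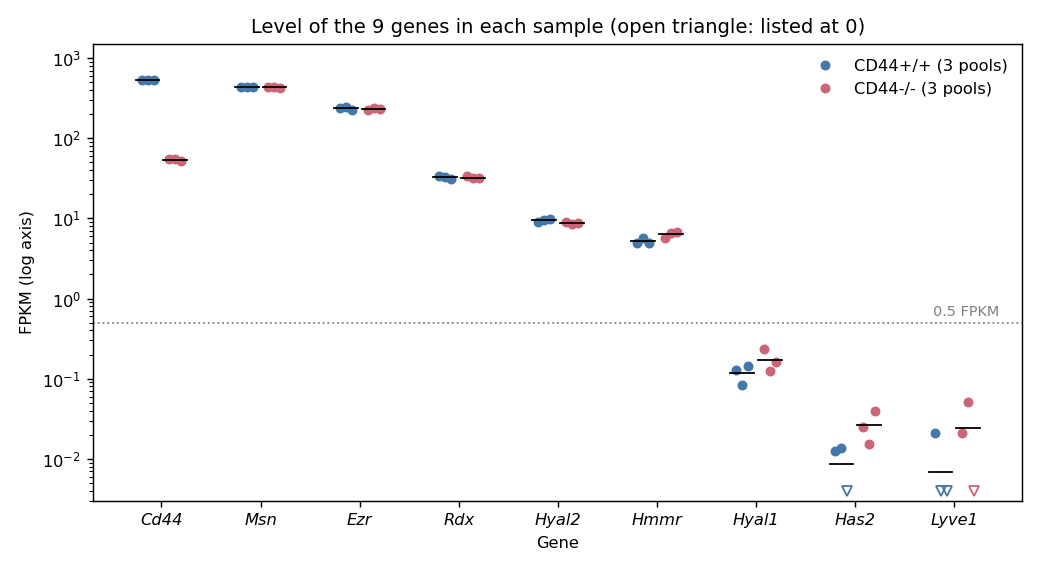
FPKM (log axis) of the 9 genes in each of the 6 samples, with a point for each pool, a black line at the mean of each genotype, open triangles for values listed at 0 and a dotted line at 0.5 FPKM. Cd44 is the only gene above the dotted line whose genotypes stand clearly apart, and Hyal1, Has2 and Lyve1 lie below the line in all samples.

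In order of level, the CD44+/+ samples had Cd44 first, then Msn, Ezr, Rdx, Hyal2, Hmmr, Hyal1, Has2 and Lyve1. Each neighbour in this order was above the next in all 3 samples, without overlap of their ranges, except Has2 and Lyve1, which did not differ beyond their spread. Cd44 was 1.22 times as high as Msn in CD44+/+ AMs by mean FPKM. In CD44-/- AMs the order of the other 8 genes was the same, and Cd44 stood between Ezr (4.30 times as high by mean FPKM) and Rdx.

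The ERM linkers did not pass the test, and their 95% intervals were narrow. Moesin (Msn, chromosome X from 96096045 to 96168553) is the main ERM protein of leukocytes. Msn stood at 441, 431 and 441 FPKM in CD44+/+ pools and at 440, 438 and 429 FPKM in CD44-/- pools, with the genotypes overlapping. Its log2 fold change was -0.01 ± 0.04 (SE, adjusted p = 0.989 by limma), with a 95% interval from 0.930 to 1.07 as a fold. Msn was among the steadiest genes of the table, since 0.454% of the tested genes had a smaller SD of log2 values within genotypes.

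Ezrin (Ezr, chromosome 17 from 6738131 to 6782780) is the family member best known from epithelial microvilli. Its level was 240, 242 and 224 FPKM in CD44+/+ pools and 223, 237 and 231 FPKM in CD44-/- pools. The groups overlapped, with a log2 fold change of -0.03 ± 0.05 (SE, 95% interval as a fold 0.904 to 1.06, adjusted p = 0.971 by limma). Radixin (Rdx, chromosome 9 from 52002061 to 52088738), known from liver and hair cells, had 33.8, 33.2 and 30.8 FPKM in CD44+/+ pools and 33.9, 31.6 and 31.5 FPKM in CD44-/- pools. Rdx was the lowest of the 3 linkers in all 6 samples. Its log2 fold change was also -0.01 ± 0.06 (SE, 95% interval as a fold 0.902 to 1.09, adjusted p = 0.989 by limma), and its sign changed when single samples were left out.

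Within each sample the make-up of the ERM transcripts was almost the same. Moesin took 61.7, 61.0 and 63.4% of the summed Ezr, Msn and Rdx FPKM in CD44+/+ pools and 63.1, 62.0 and 62.0% in CD44-/- pools. The means were 62.0% ± 1.21 and 62.4% ± 0.647 (SD, n = 3 each), and a share of this kind does not depend on scaling between samples (exact two-sided permutation test, p = 0.6, where 3 against 3 cannot give less than 0.1). Ezrin took 33.3% ± 1.06 and 33.0% ± 0.855, and radixin 4.62% ± 0.166 and 4.63% ± 0.212 (SD, n = 3 each). The sum of the 3 linkers was 706 ± 9.51 FPKM (SD, n = 3) in CD44+/+ and 698 ± 7.61 FPKM (SD, n = 3) in CD44-/- AMs (exact two-sided permutation test, p = 0.5). Cd44 FPKM came to 75.7% ± 0.0921 of that sum in CD44+/+ AMs and to 7.67% ± 0.214 in CD44-/- AMs (SD, n = 3 each).

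**Figure D2:**
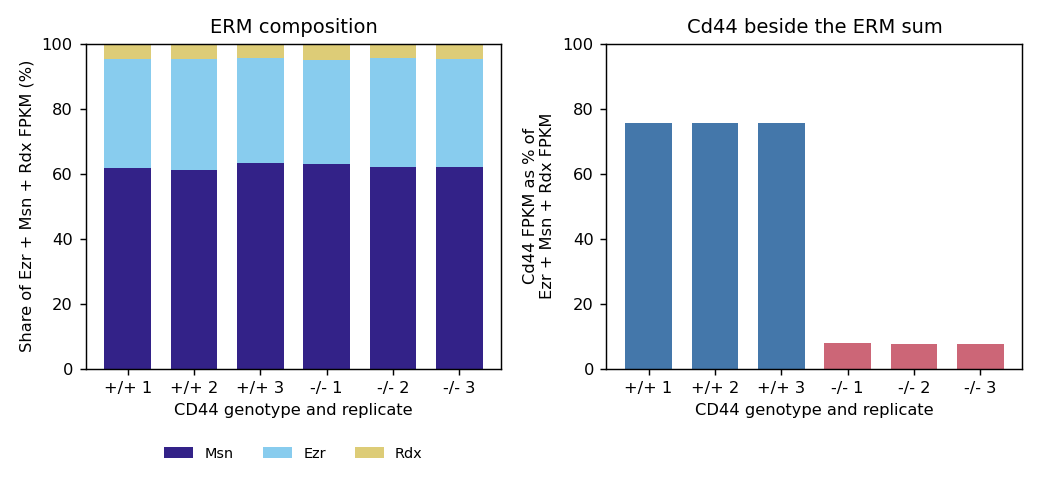
Left, share of Msn, Ezr and Rdx in their summed FPKM in each sample; right, Cd44 FPKM as a percentage of that sum, both on axes from 0 to 100%. The ERM shares are level across the 6 samples, with Msn between 61.0 and 63.4%, while Cd44 goes from about 75.7% of the sum in CD44+/+ samples to 7.43 to 7.85% in CD44-/- samples.

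The promoter window of Msn is shown for comparison with that of Cd44, as the member of nearest level in CD44+/+ AMs. It lies at chrX:96095795-96096094 on the plus strand (GRCm38.p6, RefSeq) and is printed 5′ to 3′ with GGGCGG on either strand in capitals.
Msn: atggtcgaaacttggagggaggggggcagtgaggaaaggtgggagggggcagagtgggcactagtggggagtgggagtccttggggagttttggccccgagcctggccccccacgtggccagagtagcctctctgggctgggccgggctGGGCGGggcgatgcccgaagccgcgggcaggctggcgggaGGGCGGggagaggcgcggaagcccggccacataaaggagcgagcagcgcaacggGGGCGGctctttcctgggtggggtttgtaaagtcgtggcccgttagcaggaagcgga
It holds 3 matches to GGGCGG and 21 CpG dinucleotides, against 6 CpG in the window of Cd44 and a median of 7 over all windows. Of the 8 windows of 7 members, 7 hold GGGCGG on either strand.

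With Ezr, Msn and Rdx included, 16 genes of the list of ERM linkers and regulators were tested and none was called by limma (0 at an unadjusted p under 0.05), with log2 fold changes from -0.21 for Slc9a3r2, an ERM-binding scaffold, to 0.11 and a median of -0.00334, beside 0.01 for all tested genes. Rhoa, the small GTPase upstream of ERM phosphorylation, had 344 ± 1.0 FPKM (SD, n = 3) in CD44+/+ and 337 ± 8.33 FPKM (SD, n = 3) in CD44-/- AMs. Arhgdia, a GDP dissociation inhibitor, had 369 ± 10.0 and 367 ± 7.77 FPKM (SD, n = 3 each). Ppp1cb, a catalytic subunit of myosin phosphatase, and Pip5k1a, which makes the lipid that opens ERM proteins, were the 2 of 16 genes without overlap, a share near the 11.6% of all tested genes, with log2 fold changes of -0.04 and 0.11 (adjusted p = 0.944 and 0.806 by limma).

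Among membrane proteins that bind ERM proteins, 9 genes were tested and none was called by limma, with 2 at an unadjusted p under 0.05, against 7.69% of all tested genes. These were Spn and Pdpn, the gene of podoplanin, of which Pdpn was named after its values were seen. Pdpn had the highest log2 fold change of the list (0.43 ± 0.15, SE, adjusted p = 0.536 by limma), with overlap. Spn, the gene of the sialomucin CD43, had 29.2, 26.9 and 28.2 FPKM in CD44+/+ pools and 31.7, 35.4 and 36.3 FPKM in CD44-/- pools. All 3 CD44-/- values were above the CD44+/+ values, as in 6.75% of all tested genes in this direction. The log2 fold change of Spn was 0.29 ± 0.07 (SE, adjusted p = 0.266 by limma). Cd9, a tetraspanin and the most abundant gene of the list, had 3447 ± 76.4 and 3447 ± 125 FPKM (SD, n = 3 each), a fitted difference of -0.00040 on the log2 scale. Selplg, the P-selectin ligand PSGL-1, had 137 ± 6.81 and 150.0 ± 10.0 FPKM, and the tetraspanin Cd81 had 118 ± 28.7 and 101 ± 4.98 FPKM (SD, n = 3 each).

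Of the genes that make hyaluronan, the 3 synthases were all under 0.5 FPKM in every sample and were not tested. Has2 (chromosome 15 from 56665627 to 56694546), the synthase of long hyaluronan chains in most tissues, was listed at 0.0124, 0.0135 and 0 FPKM in CD44+/+ pools and at 0.0251, 0.0153 and 0.0395 FPKM in CD44-/- pools. The CD44-/- values were all above the CD44+/+ values (p = 0.1 in an exact two-sided permutation test, where no smaller p is possible), but no fold is given at levels this low. Has1, another synthase, was listed at 0.0531, 0 and 0.075 FPKM in CD44+/+ pools and at 0.108, 0.0971 and 0.224 FPKM in CD44-/- pools, also without overlap, and Has3 was at most 0.0433 FPKM in any pool. Of the 7 genes that supply the sugar precursors, 6 passed the filter, and Gfpt2 was at 0.109 FPKM or less in all pools. Ugp2, which makes UDP-glucose, had 70.9 ± 0.992 FPKM (SD, n = 3) in CD44+/+ and 70.1 ± 3.14 FPKM (SD, n = 3) in CD44-/- AMs. Uap1, which makes UDP-N-acetylglucosamine, had 29.7 ± 0.906 and 29.0 ± 0.975 FPKM, and Ugdh, which makes UDP-glucuronic acid, had 27.9 ± 1.42 and 28.3 ± 2.11 FPKM (SD, n = 3 each). Of the 6 tested genes of this list none was called by limma, none had an unadjusted p under 0.05, and log2 fold changes ran from -0.03 to 0.09.

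Among the hyaluronidases, Hyal2 was expressed and Hyal1 was not above 0.5 FPKM in any sample. Hyal2 (chromosome 9 from 107569163 to 107572778) is a surface-anchored enzyme that cuts long hyaluronan into fragments. It had 9.13, 9.42 and 9.82 FPKM in CD44+/+ pools and 9.06, 8.55 and 8.68 FPKM in CD44-/- pools. The groups just failed to overlap, with CD44-/- replicate 1 next to CD44+/+ replicate 1, as in 4.88% of all tested genes in this direction. The log2 fold change was -0.11 ± 0.07 (SE, 95% interval -0.26 to 0.05, adjusted p = 0.823 by limma). Hyal1 (chromosome 9 from 107576952 to 107580133), the lysosomal hyaluronidase that takes over these fragments, had 0.127, 0.0824 and 0.144 FPKM in CD44+/+ pools and 0.232, 0.124 and 0.161 FPKM in CD44-/- pools, with overlap (p = 0.3 in an exact two-sided permutation test). The GENCODE annotation places Hyal3 and Naa80 over Hyal1 on the same strand, so fragments there could be split between the 3 genes. On the opposite strand, Ezr overlaps Sytl3, Has2 overlaps Has2os, Hyal1 overlaps Gm16343, Hyal2 overlaps Gm9917, and Cd44 and Msn overlap the small RNA genes Gm23731 and Gm24718, and whether strand was used in the counting is not given in the sources used here.

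The lysosomal enzymes that finish the breakdown were far above both hyaluronidases. Hexa, a subunit of a lysosomal hexosaminidase, stood at 449 ± 15.0 FPKM in CD44+/+ pools and at 440.3 ± 12.01 FPKM in CD44-/- pools (SD, n = 3 each), with overlap. Gusb, beta-glucuronidase, had 191 ± 9.45 and 203 ± 9.29 FPKM (SD, n = 3 each), with overlap. Of the 5 tested genes of hyaluronan breakdown none was called, and 1 had an unadjusted p under 0.05, against 7.69% of all tested genes.

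Of the other hyaluronan receptors, Lyve1 was nearly absent. Lyve1 (chromosome 7 from 110850607 to 110862953) has the same link domain as CD44 and is known from lymphatic vessels and a class of interstitial macrophages. It was listed at 0.0208, 0 and 0 FPKM in CD44+/+ pools and at 0.0211, 0.0510 and 0 FPKM in CD44-/- pools, with overlap (exact two-sided permutation test, p = 0.4). Neither genotype had a value above 0.0510 FPKM. Tlr2 and Tlr4, Toll-like receptors for which hyaluronan fragments are held to be ligands, were both expressed. Tlr2 had 324, 425 and 350 FPKM in CD44+/+ pools and 290, 303 and 314 FPKM in CD44-/- pools, without overlap, a log2 fold change of -0.27 ± 0.09 (SE, adjusted p = 0.509 by limma). Tlr4 had 53.6 ± 5.38 and 58.7 ± 1.78 FPKM (SD, n = 3 each), with overlap. Of the list of matrix and other proteins that bind hyaluronan, 1 of 18 measured genes passed the filter and 5 were listed at 0 in all samples. That 1 gene, Habp4, which codes for an intracellular RNA-binding protein and not for a matrix protein, had 7.07 ± 0.762 and 8.25 ± 0.344 FPKM (SD, n = 3 each), a log2 fold change of 0.22 ± 0.09 (SE, adjusted p = 0.619 by limma).

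**Figure D3:**
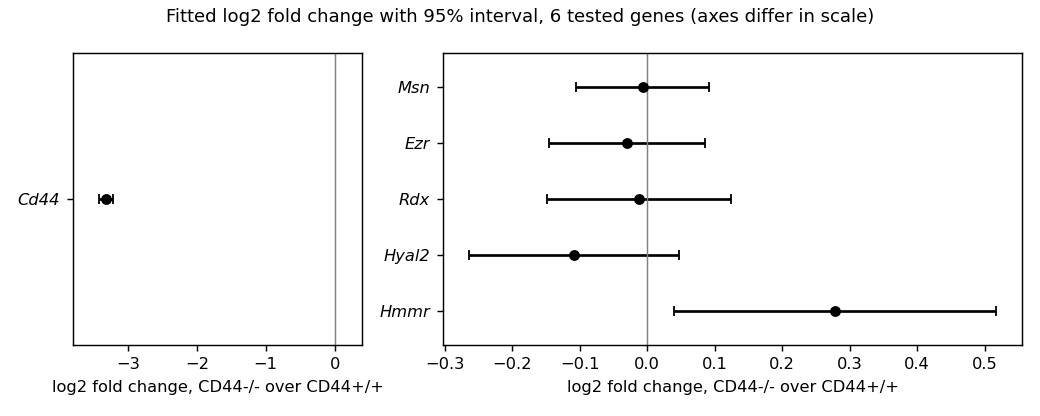
Log2 fold change (CD44-/- over CD44+/+) of the 6 tested genes with its 95% interval, with Cd44 on an axis of its own. The intervals of Msn, Ezr, Rdx and Hyal2 include 0, and that of Hmmr runs from 0.04 to 0.52 before adjustment for the number of genes.

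Hmmr (chromosome 11 from 40701388 to 40733437), also named RHAMM, can bind hyaluronan outside the cell and is known in the nucleus and cytoplasm as a protein of the mitotic spindle. It had 4.97, 5.77 and 4.95 FPKM in CD44+/+ pools and 5.66, 6.63 and 6.82 FPKM in CD44-/- pools. CD44-/- replicates 2 and 3 were above all CD44+/+ samples, and replicate 1 lay inside their range. The log2 fold change of 0.28 ± 0.10 (SE, 95% interval 0.04 to 0.52) had an unadjusted p of 0.0269 and an adjusted p of 0.560 by limma, so Hmmr did not pass. Without CD44-/- replicate 2 it was 0.25, without CD44-/- replicate 3 it was 0.23, and without CD44-/- replicate 1 it was 0.36.

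The window around the start of Hmmr is shown because the gene varied with genes of the G2 and M phases, whose promoters are known for CCAAT boxes and for the cell cycle element TTTGAA. It lies at chr11:40733388-40733687 on the minus strand (GRCm38.p6, RefSeq), and is printed 5′ to 3′ with CCAAT and TTTGAA in capitals, searched on both strands, where ATTGG is CCAAT on the other strand.
Hmmr: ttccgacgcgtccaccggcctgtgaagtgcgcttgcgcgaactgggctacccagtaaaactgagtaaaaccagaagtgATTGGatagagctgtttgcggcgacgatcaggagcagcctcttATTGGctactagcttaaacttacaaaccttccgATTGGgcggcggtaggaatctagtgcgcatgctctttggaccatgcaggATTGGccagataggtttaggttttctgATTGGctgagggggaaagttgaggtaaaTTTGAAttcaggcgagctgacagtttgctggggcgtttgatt
It holds 5 CCAAT boxes, and 1.06% of all 32851 windows hold 4 or more. Its 1 cell cycle element begins 8 bases after the annotated start. Its 1 GC box, partly in lower case, shares bases with the third CCAAT box. Both motifs occur together in 6.95% of all windows (37.4% hold the CCAAT box and 17.9% the cell cycle element), and in 16 of the 22 windows found for the G2 and M phase genes described next. No other member window holds the cell cycle element, and that of Hyal1 holds 1 CCAAT box. Such matches describe the letters of these windows and show no binding.

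Each of the 24 genes of the G2 and M phase list was tested, and Hmmr is not one of them. All 24 had a positive log2 fold change, from 0.03 for Bub1b to 0.43 for Birc5, with a median of 0.26 beside 0.01 for all tested genes. None was called by limma, 12 had an unadjusted p under 0.05 (7.69% of all tested genes did), and 9 (37.5%) were higher in CD44-/- AMs without overlap, against 6.75% of all tested genes in this direction. The 9 genes without overlap were Top2a, Mki67, Ccnb2, Tpx2, Cenpf, Cenpe, Prc1, Birc5 and Ccna2. Bub1b, a kinase of the spindle checkpoint and the most abundant of the list, had 40.1 ± 3.38 and 41.0 ± 4.27 FPKM (SD, n = 3 each), with overlap. Birc5, the gene of survivin, had 21.1 ± 0.304 FPKM (SD, n = 3) in CD44+/+ and 28.6 ± 2.63 FPKM (SD, n = 3) in CD44-/- AMs (log2 fold change 0.43 ± 0.07, SE, adjusted p = 0.114 by limma). Mki67, the proliferation marker Ki-67, had 20.1 ± 1.80 and 26.9 ± 4.16 FPKM, and Ccnb2, cyclin B2, had 20.5 ± 0.462 and 27.8 ± 4.31 FPKM (SD, n = 3 each).

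Sample by sample, Hmmr and these genes had the same high samples. The 24 genes summed to 336, 340 and 338 FPKM in CD44+/+ pools and to 347, 440.3 and 446 FPKM in CD44-/- pools. CD44-/- replicates 2 and 3 were thus high in both, and CD44-/- replicate 1 stood near the CD44+/+ samples. Across the 6 samples, the Pearson correlation of Hmmr with each of the 24 genes on the log2 scale was positive, between 0.645 and 0.955 with a median of 0.855, a description over samples that also differ in genotype. CD44-/- replicate 2 also had the highest erythroid sum and CD44-/- replicate 3 the highest alveolar type 2 sum given above, and their part in the mitotic genes was not tested. The pools also differed in number of mice, and the part of this was not tested.

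**Figure D4:**
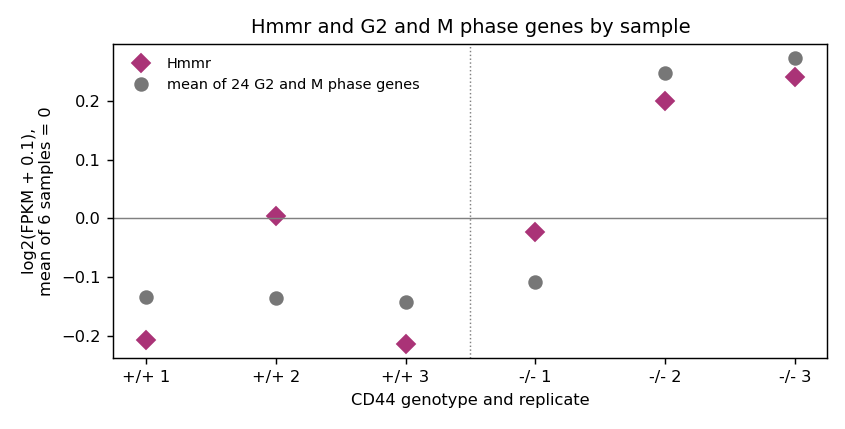
Log2(FPKM + 0.1) of Hmmr and the mean over 24 G2 and M phase genes in each sample, with the mean of the 6 samples set to 0. Both are highest in CD44-/- replicates 2 and 3 (Hmmr at 0.20 and 0.24), while CD44-/- replicate 1 is at -0.02 for Hmmr and -0.11 for the list.

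CD44 is shed from the surface by metalloproteinases and then cut by gamma-secretase, and sialidases can change its binding of hyaluronan. Of the 10 tested genes of this list none was called by limma, and 1 had an unadjusted p under 0.05, against 7.69% of all tested genes. Timp1, an inhibitor of metalloproteinases that was near the filter, had the lowest log2 fold change (-1.11 ± 0.50, SE, adjusted p = 0.673 by limma). The gene with the low unadjusted p, Timp2, of the same family, had 33.5, 25.7 and 27.3 FPKM in CD44+/+ pools and 38.6, 42.5 and 40.5 FPKM in CD44-/- pools. All CD44-/- samples were above the CD44+/+ samples, and the log2 fold change was 0.50 ± 0.10 (SE, adjusted p = 0.158 by limma). Without CD44+/+ replicate 1, which was the highest of its group, the log2 fold change of Timp2 was 0.61 and its adjusted p was 0.0146. In that fit 36 genes of the table were called in place of 12, and Timp2 passed under no other processing tried. The sheddase Adam10 had 75.2 ± 3.68 and 73.3 ± 3.35 FPKM (SD, n = 3 each). The gamma-secretase genes Ncstn (86.4 ± 5.26 and 86.8 ± 8.38 FPKM) and Psen2 (77.7 ± 4.59 and 75.7 ± 5.45 FPKM) also overlapped between genotypes (SD, n = 3 each).

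**Figure D5:**
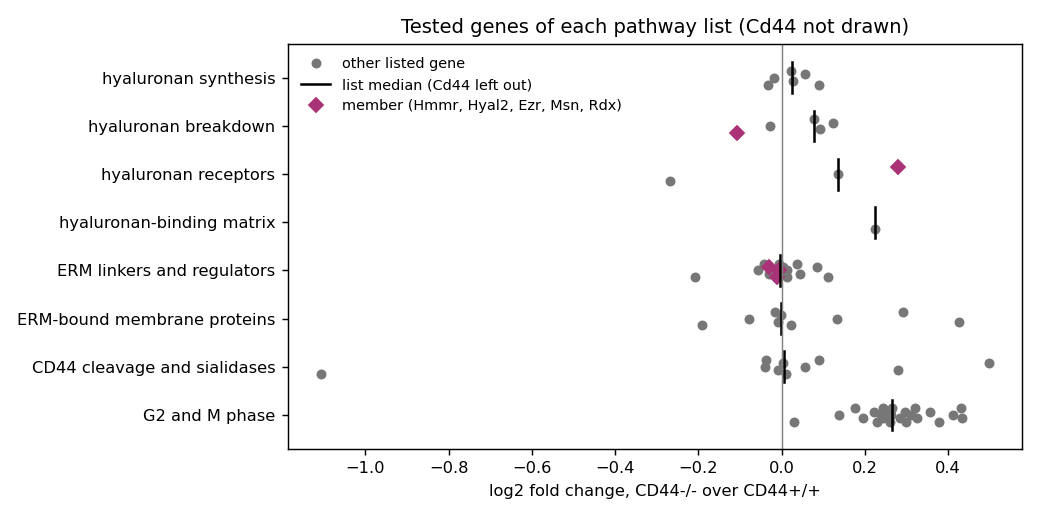
Log2 fold change (CD44-/- over CD44+/+) of every tested gene of the 8 pathway lists, 1 point per gene with the members as diamonds and a black bar at each list's median, Cd44 left out. The ERM linkers sit beside 0, Hyal2 is at -0.11, and the G2 and M phase genes lie to the right of 0 with a median of 0.26, and Hmmr, among the receptors, is at 0.28.

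Beside the members, the 8 lists held 103 measured genes, of which 69 were tested and none was called by limma (18 at an unadjusted p under 0.05). Leaving out the G2 and M phase list, 45 genes were tested, 6 (13.3%) did not overlap between genotypes against 11.6% of all tested genes, and 6 had an unadjusted p under 0.05. Their median log2 fold change was 0.01, the same as that of all tested genes. Leaving out CD44-/- replicate 1, Ccnb2 (log2 fold change 0.56, adjusted p = 0.0224 by limma) and Birc5 (0.50, adjusted p = 0.0488) passed. This was the lowest CD44-/- pool for both genes. In that fit 22 genes of the table were called in place of 12, and neither gene passed under any other processing tried.

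The genes whose pattern over the 6 samples was most like that of a member were found by Pearson correlation of log2(FPKM + 0.1), given as a description. For Cd44 these were Naip2 (0.996), Wwtr1 (0.993) and Snora28 (0.991). Snora28, a small nucleolar RNA, had 34.2, 12.8 and 10.7 FPKM in CD44+/+ pools and was listed at 0 in all CD44-/- pools. It thus passed the filter through the CD44+/+ pools alone. Naip2, a sensor of bacterial proteins, had 54.9, 54.3 and 54.8 FPKM in CD44+/+ pools and 50.1, 49.7 and 49.8 FPKM in CD44-/- pools, a much smaller difference than that of Cd44 but also without overlap. Wwtr1, the transcriptional co-activator TAZ, had 20.1, 20.3 and 19.4 FPKM against 16.0, 16.1 and 15.7 FPKM. With 2 genotypes of 3 samples, any gene that splits them cleanly comes high in such a ranking. For Hmmr they were Cenpm (0.996), Rab1b (0.996) and Ddah1 (0.989), of which Cenpm, a kinetochore gene outside the list, had 2.88, 3.47 and 2.79 FPKM in CD44+/+ pools and 3.42, 4.51 and 4.58 FPKM in CD44-/- pools. For Ezr they were Acy1, Grhl1 and Cnot2 (0.987 to 0.997), for Msn Kdm6b, Dctn4 and Nufip1 (0.988 to 0.994), and for Rdx Aldh6a1, Galnt1 and Psip1 (0.985 to 0.998).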

How the data were processed

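RNA of AMs from female CD44+/+ and CD44-/- mice was measured in 3 pools per genotype. The labels gave each pool its genotype and its replicate number. Reads were mapped by the authors (STAR, mm10), who deposited a Cufflinks table of FPKM for 24341 genes. In 1 gene a value was missing, and it was left out. Columns with the fold changes, p-values and q-values of the authors' own Cuffdiff comparison were not used. The name and position columns of the table are in another row order than the gene identifiers (0 rows match), so positions were looked up by gene name and converted to a first base of 1. Overlapping genes came from GENCODE vM21 and promoter windows from RefSeq (GRCm38.p6). Epb41, Siglec5 and Ly6g of the lists were not analysed here. Values of 1 further listed gene are not reported here.

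All genes whose mean FPKM reached 0.5 entered the comparison, on log2(FPKM + 0.1), in R 4.3.3 with limma 3.58.1 (lmFit, eBayes with an intensity trend, two-sided, Benjamini-Hochberg adjustment over 10800 genes, called at an adjusted p under 0.05). The comparison was checked on simulated data. Cuffdiff, used in the study, needs reads, and single values were compared by an exact permutation test over samples. The 9 members and all lists were chosen with earlier results of these data known. Named were the members, the 3 highest genes of each pathway list, its genes without overlap or called, the genes most like Cd44, Hmmr, Ezr, Msn and Rdx, and others where a range or a count pointed to 1 gene. Relative depth was taken from the steps between values under 0.05 FPKM, and absolute depth is unknown, so no interval for counting error is given. Sums of FPKM were 487901 to 504182 per sample. Nothing in the labels states that same-numbered pools were collected together, but their deviations from the group means correlated at 0.212, 0.132 and 0.211 across genes for replicates 1, 2 and 3, so the replicate number was also fitted as a block. Other alternatives were the pseudocount, the filter, scaling, the variance model and leaving out each sample.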

Additional observations from a re-analysis of the deposited data

How the results depend on the processing

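Under the 15 alternatives, Cd44 remained the 1 member called, with a log2 fold change of -3.33 to -3.29 and an adjusted p of 2.44e-10 to 0.000136. Hmmr (0.23 to 0.36), Hyal2 (-0.13 to -0.08) and Ezr (-0.07 to -0.01) kept their sign and did not pass, with adjusted p from 0.314, 0.490 and 0.877 upward. The sign of Msn turned with quantile normalization (0.00435) and, with samples left out in turn, it ran from -0.0176 to 0.00447. Rdx ran from -0.0524 to 0.0143 with samples left out. The difference in the Msn share of the ERM sum (CD44-/- minus CD44+/+), 0.354 percentage points, ran from -0.148 to 1.03 with samples left out. With the replicate block 9 genes were called in place of 12, and the call of no member changed (Cd44 adjusted p = 1.34e-06, Hmmr 0.395). With samples left out in turn, 6 genes (without CD44-/- replicate 2) to 36 genes (without CD44+/+ replicate 1) were called in all, and 1 to 3 genes of the pathway lists, Cd44 included. The cause was not tested. Without the filter on low values, Has2, Hyal1 and Lyve1 were fitted too and did not pass, each with an adjusted p of 1.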
